A study of Mus musculus with 15 samples.

Results

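Marco and 9 other genes of macrophage scavenging and tissue residence were followed through RNA-Seq of the mouse conjunctiva, the mucous membrane that lines the eyelids and covers the white of the eye. The 10 genes were found by symbol among 55487 genes in the table. Marco was chosen by measured values of these libraries, namely its lower level in the isotype group than in the PBS group, and the others, Msr1, Cd163, Mrc1, Lyve1, Timd4, Folr2, Vsig4, Stab1 and F13a1, were placed beside it by name as receptors and markers of resident macrophages. Levels of Marco are therefore given in every comparison without a test, and so are the values of all 10 genes in isotype against PBS. Of the 10 genes, 9 passed the minimum of 10 counts in at least 5 libraries and were fitted, and Vsig4 did not. Marco reached 10 counts in only 7 of the 15 libraries, so it passed mainly through the group in which it was high.

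All mice were wild-type female BALB/c (spelled BALC/c in the labels), 9 to 12 weeks old, and all were sensitized through the skin of the ear with MC903 and OVA. MC903, or calcipotriol, is a vitamin D analogue that inflames skin when applied at 2.5 nmol per day for 7 days, and OVA is the model antigen ovalbumin. The PBS group then had PBS as its ocular challenge and no antibody named in the labels. The isotype group was challenged in the eye with OVA and given an isotype control antibody, and the anti-IL-4Ra group was challenged with OVA and given an antibody against the IL-4 receptor alpha chain, at 25 mg/kg. Challenge went on for 7 days, up to day 24. Because the groups with OVA in the eye also had an antibody, the OVA challenge and the isotype antibody cannot be told apart in isotype against PBS.

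Each group had 5 libraries of 48622246 to 87745024 counts, and the labels do not say whether these come from separate mice, so p-values measure the spread between these libraries. Of the labelled tissue's 6 conjunctival and corneal epithelium markers, Krt4, Krt13, Krt19, Krt12, Muc5ac and Pax6, none was at 0 in any library, and their summed level ran from 2755 to 4888 CPM, which are counts scaled to the library's normalized total. Skeletal muscle genes summed to 4655 to 13600 CPM and lacrimal acinar genes to 248 to 4439 CPM in the same libraries. The study mentions outlier libraries that the sources used here do not identify, and its figures give fewer than 5 libraries for some groups. All 15 were kept here. In isotype replicate 1, 8 of the 10 genes were lowest of their group, and 7 were highest in isotype replicate 5. Since these are bulk tissues, fewer macrophages and less RNA per macrophage cannot be told apart.

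Scavenger receptors are surface proteins with which macrophages take up bacteria, dust, modified lipoproteins and dying cells. Marco, the macrophage receptor with collagenous structure, and Msr1, which encodes scavenger receptor A, are both trimeric class A receptors with a collagen-like stalk, and Marco is best known from alveolar macrophages and from macrophages of the splenic marginal zone. Cd163 encodes the receptor for haptoglobin-bound hemoglobin and Mrc1 the mannose receptor CD206, both typical of macrophages that settle around vessels in connective tissue. IL-4 and IL-13 act on macrophages through the receptor chain blocked here, and Mrc1 is a classic marker of macrophages treated with IL-4.

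Sequences directly upstream of the start of Marco, Cd163 and Mrc1 are shown because these 3 genes differed most between the groups and did so in opposite directions. Each holds 250 bases from the RefSeq table of GRCm38.p6, read 5′ to 3′ on the strand of the gene and ending just before the start site. Capitals mark GAGGAA or its reverse complement TTCCTC, a core of the site of PU.1, the macrophage transcription factor encoded by Spi1. The windows lie at chr1:120505025-120505274 on the minus strand for Marco, at chr6:124304401-124304650 on the plus strand for Cd163 and at chr2:14229164-14229413 on the plus strand for Mrc1.
Marco: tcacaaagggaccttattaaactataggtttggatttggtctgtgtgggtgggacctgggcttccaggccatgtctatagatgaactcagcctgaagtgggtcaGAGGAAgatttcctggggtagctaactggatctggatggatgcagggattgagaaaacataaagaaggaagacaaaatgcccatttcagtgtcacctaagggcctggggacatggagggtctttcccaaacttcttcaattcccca
Cd163: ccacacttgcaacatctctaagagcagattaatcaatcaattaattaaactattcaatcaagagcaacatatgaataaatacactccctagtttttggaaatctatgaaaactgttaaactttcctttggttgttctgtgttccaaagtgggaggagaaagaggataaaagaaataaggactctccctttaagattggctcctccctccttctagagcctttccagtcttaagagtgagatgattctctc
Mrc1: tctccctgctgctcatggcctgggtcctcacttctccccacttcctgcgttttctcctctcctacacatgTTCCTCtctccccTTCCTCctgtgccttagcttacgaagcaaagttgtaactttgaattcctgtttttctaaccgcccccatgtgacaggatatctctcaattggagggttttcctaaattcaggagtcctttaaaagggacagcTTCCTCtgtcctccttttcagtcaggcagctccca

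The Marco window held the PU.1 letters 1 time, at bases -146 to -141 from the start site, the Mrc1 window 3 times, and the Cd163 window did not hold them. Of all 32851 promoter windows of this length, 23.3% had at least 1 such match. The motif of STAT6, the factor activated by the IL-4 receptor (TTC and GAA with 4 free bases between them), was in 5.85% of all windows and in none of the 3 shown. The STAT letters TTCNNNGAA (7.02% of windows), the AP-1 letters TGANTCA (6.75%), the antioxidant response letters TGACNNNGC (10.2%) and the E-box CACGTG (6.02%) were searched on both strands as well and were also not in these 3 windows. A match is only a description of the letters. RefSeq's table held a window for 8 of the 10 genes and none for Msr1 and Lyve1.

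Marco (ENSMUSG00000026390, chr1:120474538-120505024, minus strand, GRCm38) was the one gene of the 10 whose every isotype library lay below every PBS library. The 5 PBS libraries held 52, 39, 16, 104 and 95 Marco counts, or 0.715, 0.662, 0.283, 1.99 and 1.67 CPM. The 5 isotype libraries held 2, 17, 2, 12 and 3 counts, or 0.0409, 0.174, 0.0337, 0.21 and 0.0542 CPM. In the anti-IL-4Ra libraries there were 0, 4, 3, 7 and 1 counts, or 0, 0.0603, 0.0437, 0.173 and 0.0236 CPM. Within the PBS group the level varied by several fold, and even its lowest library, replicate 3, stood above the highest isotype library. The isotype and anti-IL-4Ra groups overlapped.

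The mean level of Marco was 1.06 ± 0.727 CPM (SD, n = 5) in the PBS group, 0.102 ± 0.0829 in the isotype group and 0.0601 ± 0.067 in the anti-IL-4Ra group. The ratio of the PBS mean to the isotype mean was 10.4, and to the anti-IL-4Ra mean it was 17.7. On the fitted log2 scale the isotype group was lower than PBS by -3.27 (SE 0.64) and the anti-IL-4Ra group by -4.15 (SE 0.72). Between the antibody groups the fitted difference was -0.88 (SE 0.83), about the size of its error, and 3 of the 5 libraries of each of these groups were at or below 3 counts. At this depth a further difference between them was not detectable. When 1 library at a time was left out, the fitted log2 value for isotype against PBS ran from -3.61 to -2.93. Both comparisons rest on the PBS libraries by which Marco was chosen.

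Counting error was wide for Marco in any single library, since 3 counts amounted to 0.0307 to 0.0741 CPM. No other annotated gene overlapped Marco, whose exons cover 1925 bases.

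**Figure D1:**
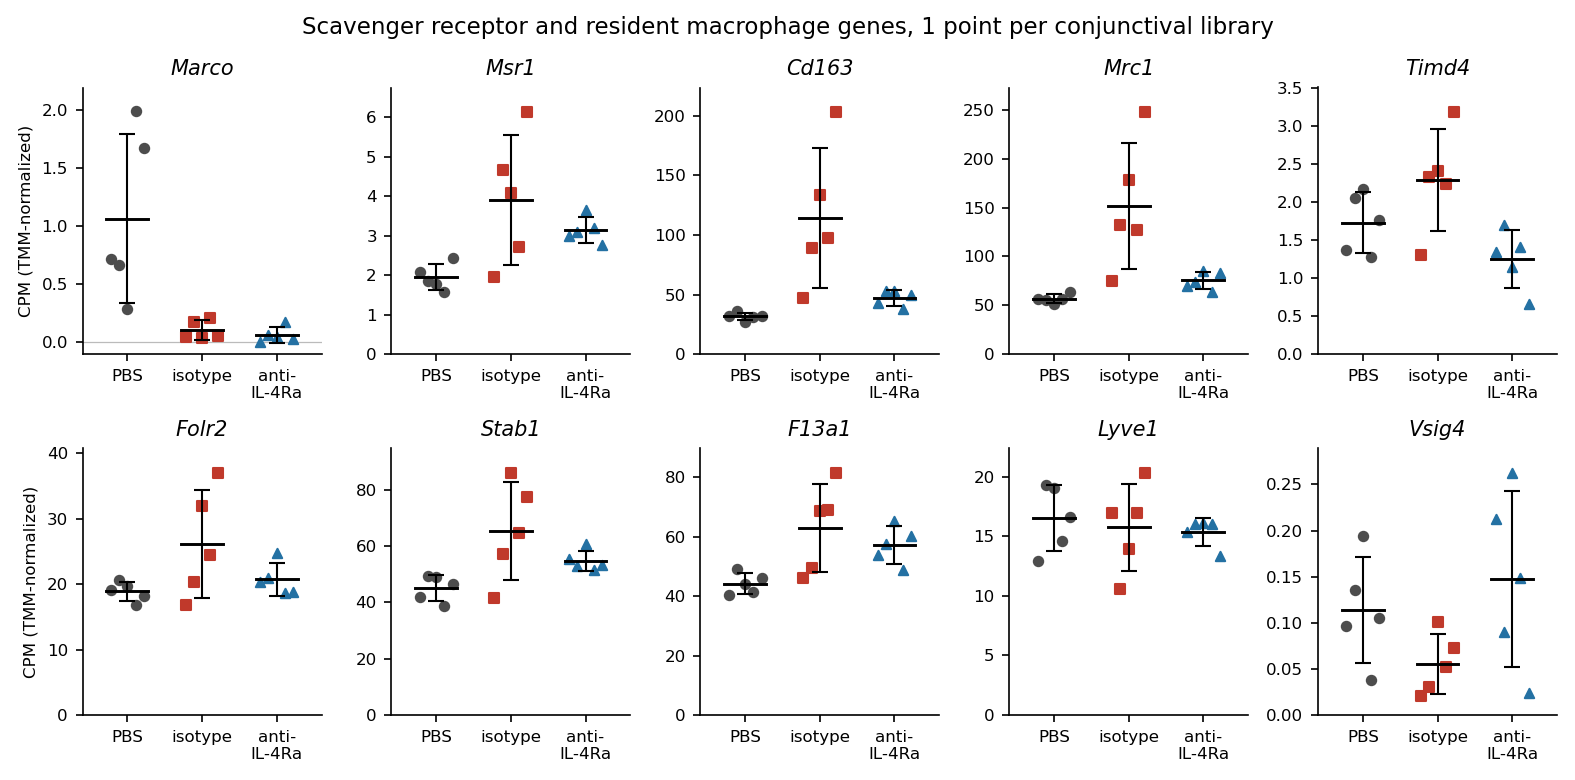
CPM of each of the 10 genes (vertical axis, linear) in the PBS, isotype and anti-IL-4Ra groups (horizontal axis), with 1 point per library and the mean ± SD of 5 libraries in black. Marco is near 0 in every isotype and anti-IL-4Ra library, Cd163 and Mrc1 are highest in the isotype group, and Lyve1 is at a like level in all 3 groups.

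Msr1, the other collagen-containing class A receptor of the 10 (ENSMUSG00000025044, chr8:39581685-39642673, minus strand), did not follow Marco. The PBS libraries had 2.09, 1.87, 1.79, 1.59 and 2.44 CPM, and the isotype libraries 1.96, 4.66, 4.09, 2.71 and 6.12 CPM. The anti-IL-4Ra libraries had 2.98, 3.09, 3.66, 3.19 and 2.76 CPM. The isotype group was the most spread, with replicate 1 inside the PBS range and replicate 5 at the top, whereas every anti-IL-4Ra library was above every PBS library. The mean ratio of isotype to PBS was 2 (fitted log2 difference 1.0, SE 0.24). By the edgeR quasi-likelihood test, Msr1 was not called in anti-IL-4Ra against isotype (log2 fold change -0.32, SE 0.24, adjusted p = 0.364) or in anti-IL-4Ra against PBS (0.68, SE 0.24, adjusted p = 0.113). Of both class A receptors, then, Marco was lower and Msr1 higher in the mean of the isotype group, a description of the libraries by which Marco was chosen.

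Cd163 (ENSMUSG00000008845, chr6:124304656-124330527, plus strand) had the widest separation upward. The PBS libraries lay close together at 31.9, 36.2, 27.1, 31.3 and 31.8 CPM. The isotype libraries had 46.9, 89.0, 133.7, 97.6 and 202.7 CPM, and the anti-IL-4Ra libraries 42.6, 53.1, 52.7, 37.6 and 49.8 CPM. Every isotype and every anti-IL-4Ra library was above every PBS library, while isotype replicate 1 was within the anti-IL-4Ra range. The fitted log2 difference of isotype from PBS was 1.85 (SE 0.28), a mean ratio of 3.6.

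In anti-IL-4Ra against isotype Cd163 fell by 1.27 on the log2 scale (SE 0.27, edgeR quasi-likelihood adjusted p = 0.0133), from a mean of 114 ± 58.4 CPM to 47.2 ± 6.79 CPM (SD, n = 5). Against PBS the anti-IL-4Ra group was not called (0.57, SE 0.27, adjusted p = 0.222). The mean of the anti-IL-4Ra group was 1.49 times that of PBS, where the groups did not overlap.

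Mrc1 (ENSMUSG00000026712, chr2:14229392-14332057, plus strand) had the same order of groups. The PBS libraries had 56.5, 55.8, 51.3, 56.7 and 63.9 CPM, the isotype libraries 74.9, 132.3, 177.7, 126.7 and 247.4 CPM, and the anti-IL-4Ra libraries 70.0, 74.3, 85.4, 63.9 and 83.6 CPM. Every isotype library was above every PBS library, with replicate 1 again the nearest to them. The fitted difference of isotype from PBS was 1.42 (SE 0.23). In anti-IL-4Ra against isotype Mrc1 fell by 1.01 on the log2 scale (SE 0.23, edgeR adjusted p = 0.015), and against PBS it was not called (0.41, SE 0.22, adjusted p = 0.292). The microRNA gene Mir511 lies within Mrc1 and had 0 counts.

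Cd163 and Mrc1 had nearly the same order of libraries. The Pearson correlation of their log2 CPM over the 15 libraries was 0.991, and 0.968 after each group was centred on its mean. These points share library, depth and tissue makeup, and the value is a description.

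Timd4, a receptor for phosphatidylserine on dying cells that marks long-lived resident macrophages (ENSMUSG00000055546, chr11:46810800-46844332, plus strand), was low throughout. It had 1.38, 2.05, 2.18, 1.28 and 1.76 CPM in PBS, 1.31, 2.32, 2.41, 2.24 and 3.18 CPM in isotype and 1.34, 1.70, 1.15, 1.41 and 0.661 CPM in anti-IL-4Ra libraries. All 3 groups overlapped, with anti-IL-4Ra replicate 5 the lowest of all. Timd4 fell by 0.87 on the log2 scale in anti-IL-4Ra against isotype (SE 0.26, edgeR adjusted p = 0.0393). This call was lost without any 1 of isotype replicates 2, 3 and 5 or of anti-IL-4Ra replicates 1, 3, 4 and 5, where the adjusted p ran from 0.0502 to 0.0882. Against PBS Timd4 was not called (-0.46, SE 0.26, adjusted p = 0.303).

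Folr2 and F13a1 encode folate receptor beta and the A chain of coagulation factor XIII, and Stab1 encodes stabilin-1, a scavenger receptor of macrophages and of sinusoidal endothelium. Folr2 (ENSMUSG00000032725, chr7:101839988-101857194, minus strand) had 16.9 to 20.6 CPM in PBS, 16.8 to 37.0 in isotype and 18.7 to 24.8 in anti-IL-4Ra libraries. Stab1 (ENSMUSG00000042286, chr14:31139013-31168641, minus strand) had 38.8 to 49.3, 41.4 to 85.8 and 51.5 to 60.5 CPM in the same order. F13a1 (ENSMUSG00000039109, chr13:36867178-37050244, minus strand) had 40.3 to 49.0, 46.2 to 81.4 and 48.8 to 65.3 CPM. In all 3 genes the isotype group reached highest and spread most, and isotype replicate 1 was its lowest library.

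The fitted differences of isotype from PBS were modest in these genes, at 0.46 (SE 0.17) for Folr2, 0.53 (SE 0.15) for Stab1 and 0.51 (SE 0.13) for F13a1. None was called in anti-IL-4Ra against isotype, with log2 fold changes of -0.33, -0.25 and -0.14 and edgeR adjusted p of 0.191, 0.244 and 0.491. Without isotype replicate 1, Folr2 (-0.45, adjusted p = 0.0426) and Stab1 (-0.38, adjusted p = 0.0275) were called lower. Against PBS the anti-IL-4Ra group differed by 0.13, 0.28 and 0.37 with adjusted p of 0.696, 0.273 and 0.119, and for Stab1 alone of the 3 the libraries did not overlap. Stab1 overlaps Nt5dc2 on the other strand, which had 16352 counts beside the 48675 of Stab1, and Folr2 overlaps Gm10602 with 1403 counts beside 19399. The use of strand in the counting is not given in the sources used here, so some reads of these partners cannot be told apart.

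Lyve1, a hyaluronan receptor of lymphatic endothelium and of macrophages along vessels (ENSMUSG00000030787, chr7:110850607-110863239, minus strand), was level. It ran from 12.9 to 19.3 CPM in PBS, from 10.6 to 20.3 in isotype and from 13.3 to 16.1 in anti-IL-4Ra libraries, and all groups overlapped. The fitted difference of isotype from PBS was -0.07 (SE 0.15). Lyve1 was not called in anti-IL-4Ra against isotype (-0.03, SE 0.15, edgeR adjusted p = 0.9) or against PBS (-0.10, SE 0.15, adjusted p = 0.745). Of 6 lymphatic endothelium genes, none was called in isotype against PBS, and Reln was called higher in anti-IL-4Ra against isotype (0.66, SE 0.14, adjusted p = 0.0144). Over all genes tested, 9.53% rose and 7.49% fell in the first of these comparisons, and 6.73% rose in the second. Lyve1 reads can come from either cell type, and their shares were not tested.

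Vsig4, the complement receptor CRIg of resident macrophages (ENSMUSG00000044206, chrX:96247203-96293438, minus strand), was near the limit of detection. It had 1 to 18 counts per library and 92 counts in all 15, and 3 libraries reached 10 counts. Group means were 0.114 ± 0.0572 CPM in PBS, 0.0554 ± 0.0324 in isotype and 0.148 ± 0.095 in anti-IL-4Ra (SD, n = 5), and all groups overlapped on this scale. Counts this low give wide counting error to each value, and no fold change was fitted.

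Levels per kilobase of exon put the genes on one scale. In PBS libraries Folr2 stood highest at 12.2 ± 0.921 CPM per kilobase (SD, n = 5), followed by Mrc1 at 8.93 ± 0.711, F13a1 at 6.55 ± 0.524, Cd163 at 5.8 ± 0.588, Lyve1 at 5.65 ± 0.951 and Stab1 at 4.38 ± 0.444. Timd4 at 0.795 ± 0.183, Marco at 0.552 ± 0.378 and Msr1 at 0.308 ± 0.0516 followed, and Vsig4 closed the order at 0.0769 ± 0.0386. Neighbours from F13a1 to Stab1 and from Timd4 to Msr1 differed by less than the sum of their SDs. In isotype libraries Mrc1 (23.8 ± 10.2) and Cd163 (20.9 ± 10.7), which differed by less than their SDs, were at the top and Marco (0.0532 ± 0.043) stood just before Vsig4, and in anti-IL-4Ra libraries Marco was last at 0.0312 ± 0.0348. In both antibody groups Marco and Vsig4 differed by less than the sum of their SDs, so their order is not resolved.

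Counted over the 10 genes in isotype against PBS, 2 were higher in every isotype library (Cd163 and Mrc1), 1 was lower in every one (Marco) and 7 overlapped. Over all 19006 genes tested, 6.85% were higher in every isotype library and 5.43% lower, and nothing is read from the members' count because this contrast chose Marco. The fitted log2 differences of the other 8 genes ran from -0.07 to 1.85 with a median of 0.52, positive in 7.

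In anti-IL-4Ra against isotype, 8 of the 9 genes other than Marco were tested, and 3 were called lower (Cd163, Mrc1 and Timd4) and 0 higher at an adjusted p under 0.05 by edgeR. Of all genes tested 8.13% were called lower and 6.73% higher. The median log2 fold change of the 8 was -0.32, beside 0.01 over all genes. In 25 fits that each left out 1 isotype and 1 anti-IL-4Ra library, Cd163 was called in 17 and Mrc1 in 15. With lacrimal acinar genes as a covariate 0 of the 8 were called, with log2 fold changes of -1.16 for Cd163 (adjusted p = 0.0855), -0.92 for Mrc1 (adjusted p = 0.0932) and -0.78 for Timd4 (adjusted p = 0.205). The 7 lacrimal acinar genes summed to 262 to 1134 CPM in isotype and 321 to 4439 CPM in anti-IL-4Ra libraries, and their part in the result was not tested. In each of the 10 genes the libraries of these groups overlapped. The share of all genes that overlapped between these groups is not given here, so nothing is read from that count.

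In anti-IL-4Ra against PBS, 0 of the 8 were called by edgeR, where 2.28% of all genes were called higher and 1.44% lower, and 2 had an unadjusted p under 0.05. By DESeq2 and by limma's voom 0 were called as well. Msr1, Cd163 and Stab1 were higher in every anti-IL-4Ra library than in every PBS library. The share of all genes separated in this way is not given here, so nothing is read from that count. These 3 comparisons share libraries and are not independent of each other.

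**Figure D2:**
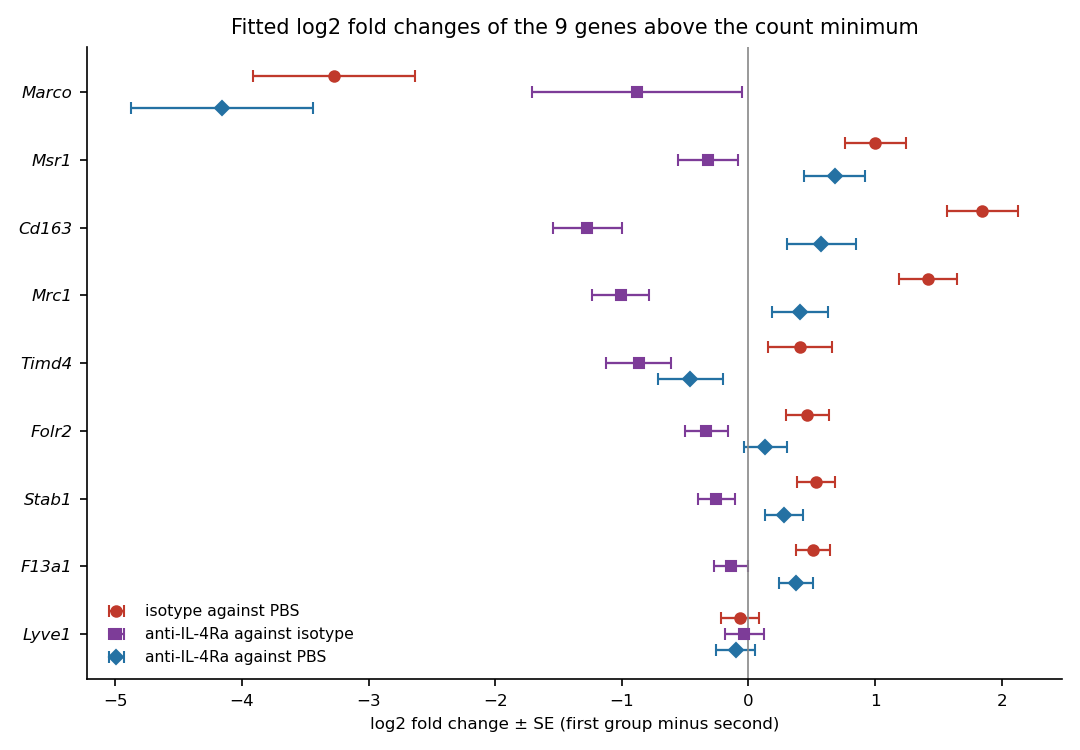
Fitted log2 fold changes (horizontal axis) with their SE for the 9 genes above the count minimum (vertical axis), with 1 symbol per comparison. Marco lies far to the left in both comparisons with PBS (-3.27 and -4.15), whereas Cd163 and Mrc1 lie to the right in isotype against PBS (1.85 and 1.42) and to the left in anti-IL-4Ra against isotype (-1.27 and -1.01).

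A set of 17 macrophage core genes, none of them among the 10, was used as a stand-in for the level of macrophage RNA. Whether it measures macrophages alone was not tested. In isotype against PBS 11 of the 17 rose and 0 fell (edgeR, adjusted p under 0.05), where 9.53% of all genes rose and 7.49% fell. Mertk (0.10, adjusted p = 0.498), Itgam (0.05, adjusted p = 0.876) and Cx3cr1 (-0.15, adjusted p = 0.481) were among those not called. Fcgr1, the high-affinity IgG receptor, rose by 1.5 (SE 0.27, adjusted p = 0.00419), the protease gene Ctss by 1.25 (SE 0.20, adjusted p = 0.00228), and the complement genes C1qb and C1qc by 1.2 and 1.07 (adjusted p = 0.00103 and 0.00151). The summed level of the list ran from 753 to 829 CPM in PBS, from 891 to 1628 CPM in isotype and from 928 to 1423 CPM in anti-IL-4Ra libraries. Marco was lower in the libraries in which these genes were higher, while Cd163 and Mrc1 were higher there. For Marco this follows from the contrast by which it was chosen.

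In anti-IL-4Ra against isotype 1 core gene fell and 1 rose, where 8.13% of all genes tested fell and 6.73% rose. Nothing is read from 1 gene each way. The gene that rose was Cx3cr1, the fractalkine receptor gene (0.45, SE 0.14, edgeR adjusted p = 0.0448). The call of Cx3cr1 was lost in 13 of the 15 fits without 1 library, namely without any library other than isotype replicate 4 or 5. Without isotype replicate 1, 8 core genes were called lower and 0 higher, and the share of all genes called in that fit is not given here. In anti-IL-4Ra against PBS 6 core genes rose and 0 fell, among them Mpeg1 (0.84, SE 0.18, adjusted p = 0.0309), C1qb (0.79, SE 0.17, adjusted p = 0.0289), C1qc (0.72, SE 0.16, adjusted p = 0.0322) and Lyz2 (0.72, SE 0.16, adjusted p = 0.0318). That count was 0 without any 1 of PBS replicates 1, 2 and 4 or of anti-IL-4Ra replicates 1, 2 and 5, and 8 without isotype replicate 1. Of all genes tested, 2.28% were called higher and 1.44% lower in anti-IL-4Ra against PBS in the fit of all libraries.

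The mean log2 CPM of the 17 core genes was 4.62 ± 0.0649 in PBS, 5.32 ± 0.314 in isotype and 5.13 ± 0.179 in anti-IL-4Ra libraries (SD, n = 5). Over the 15 libraries, Msr1, Cd163, Mrc1, Folr2, Stab1 and F13a1 correlated with this score at Pearson's r of 0.837 to 0.901, Timd4 at 0.312 and Lyve1 at -0.03. Marco correlated at -0.75 over the 15 libraries and at -0.315 after centring on group means, so most of its inverse relation lay between the groups. Marco was chosen for its lower level in isotype than in PBS libraries, and the core score was higher in isotype. The relation between these groups therefore follows from that choice, and nothing is read from it. The points share library and depth, and the values are descriptions.

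Taken relative to the core, that is as log2 CPM of the gene minus the score, Marco was at -4.79 in PBS, -8.4 in isotype and -8.8 in anti-IL-4Ra libraries, with every isotype and anti-IL-4Ra library below every PBS library. Cd163 relative to the core was 0.358 ± 0.188 in PBS, 1.36 ± 0.476 in isotype and 0.42 ± 0.174 in anti-IL-4Ra libraries, so the anti-IL-4Ra group lay 0.94 below the isotype group without overlap (two-sided exact permutation test, p = 0.00794, the smallest this design allows). Mrc1 relative to the core lay 0.72 lower in anti-IL-4Ra than in isotype libraries (exact p = 0.0159). Timd4 and Folr2 relative to the core were lower in every anti-IL-4Ra library than in every PBS library, by 0.99 and 0.38 (exact p = 0.00794 each). Folr2 relative to the core was also lower in every isotype library than in every PBS library (-0.285, no test). For Msr1, Stab1 and F13a1 the same differences between the antibody groups were -0.02, -0.02 and 0.08 (exact p = 0.897, 0.825 and 0.421). Against PBS, Lyve1 relative to the core was lower in anti-IL-4Ra libraries (-0.59, exact p = 0.0159), and so was Stab1 (-0.22, exact p = 0.0317), both with overlap. Vsig4 relative to the core was higher in anti-IL-4Ra than in isotype libraries (1.08, exact p = 0.0476, with overlap), and its isotype libraries all lay below its PBS libraries (-1.40, no test), at 1 to 18 counts per library. These are from 18 unadjusted tests. The core score was itself higher in every isotype (4.918 to 5.719) and anti-IL-4Ra library (4.93 to 5.412) than in every PBS library (4.535 to 4.691). A gene with unchanged CPM thus comes out lower relative to the core in both comparisons with PBS. Without the core, the fitted log2 differences of anti-IL-4Ra from PBS were 0.13 for Folr2, 0.28 for Stab1, -0.10 for Lyve1 and -0.46 for Timd4, none of them called. With the core score as a covariate in edgeR, Cd163 (-0.76, adjusted p = 0.0264) and Mrc1 (-0.60, adjusted p = 0.0247) were still called lower in anti-IL-4Ra against isotype, and Timd4 (-0.63, adjusted p = 0.154) was not.

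**Figure D3:**
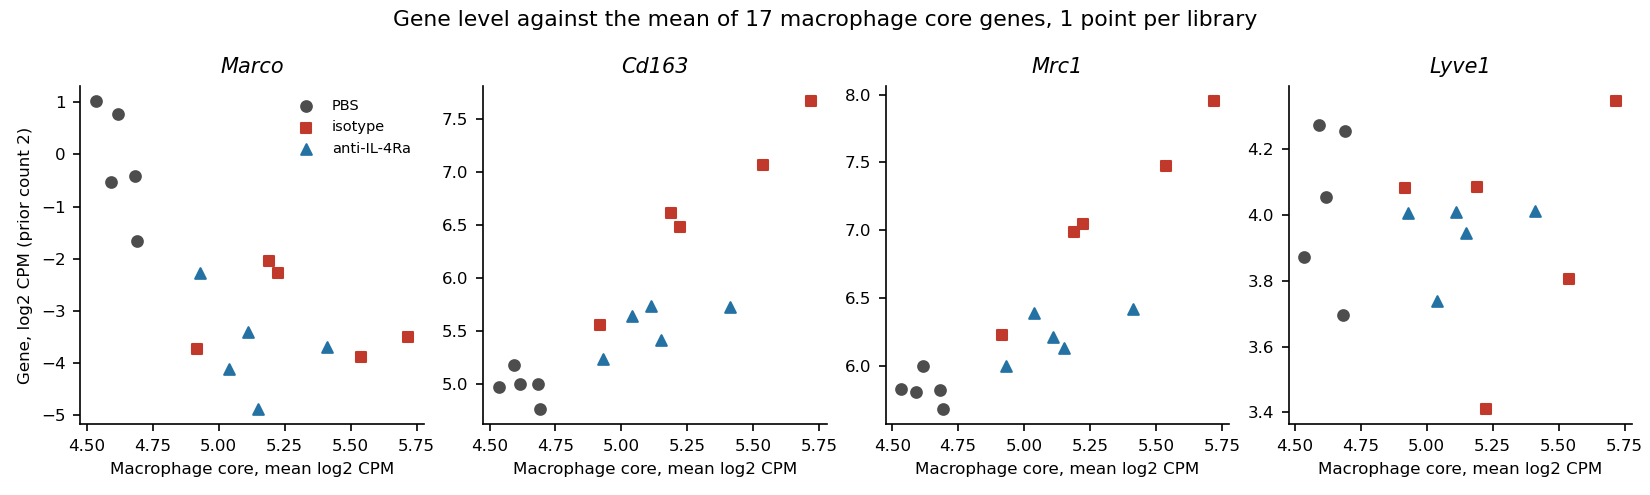
Log2 CPM of Marco, Cd163, Mrc1 and Lyve1 (vertical axes, prior count 2) against the mean log2 CPM of 17 macrophage core genes (horizontal axis), 1 point per library and 1 symbol per group. Marco is high in the 5 PBS libraries with the lowest core score, Cd163 and Mrc1 climb with the score and lie mostly lower in anti-IL-4Ra than in isotype libraries of like score, and Lyve1 does not follow it.

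Other genes of resident macrophages behaved unevenly. Of 14, 3 rose and 0 fell in isotype against PBS, namely Siglec1, the sialic acid receptor CD169 (1.45, SE 0.20, edgeR adjusted p = 0.000936), the lectin gene Cd209d (1.14, SE 0.18, adjusted p = 0.00208) and the chemokine gene Pf4 (0.64, SE 0.19, adjusted p = 0.0312). Siglec1 alone fell in anti-IL-4Ra against isotype (-0.75, SE 0.20, adjusted p = 0.0256), and none was called in anti-IL-4Ra against PBS, where Cd209d had an adjusted p of 0.05 after rounding. The 3 became 2 without any 1 of PBS replicates 2 to 4 or isotype replicates 2, 3 and 5, and the call of Siglec1 against isotype was lost without anti-IL-4Ra replicate 4 or 5 or isotype replicate 2, 3 or 5. Without isotype replicate 1 the counts were 5 higher in isotype against PBS, 3 lower in anti-IL-4Ra against isotype and 2 higher in anti-IL-4Ra against PBS. The median log2 difference of the list was 0.22 in isotype against PBS, beside -0.01 over all genes. There 9.53% of all genes tested were called higher, and 8.13% were called lower in anti-IL-4Ra against isotype.

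Other scavenger receptors, 17 genes of macrophages and of other cell types, were nearly level, with medians of 0.03, 0.01 and 0.05 in the 3 comparisons. The beta-glucan receptor gene Clec7a rose in isotype against PBS (0.88, SE 0.25, edgeR adjusted p = 0.0284), the ferritin receptor gene Scara5 rose in anti-IL-4Ra against isotype (0.50, SE 0.12, adjusted p = 0.0185), and Cd5l, which encodes a soluble scavenger protein of macrophages, rose in anti-IL-4Ra against PBS (2.41, SE 0.62, adjusted p = 0.0478). Cd5l was scarce, at 0.0537 ± 0.0369 CPM in PBS and 0.289 ± 0.115 CPM in anti-IL-4Ra libraries (SD, n = 5). Clec7a was not called without any 1 of PBS replicates 2 to 5 or isotype replicates 2, 3 and 5, and Cd5l was lost without any library other than anti-IL-4Ra replicate 3 and isotype replicates 1 and 2. No gene of this list fell in the fit of all 15 libraries. The shares of all genes called higher in the 3 comparisons were 9.53%, 6.73% and 2.28%.

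Monocyte genes were set beside Cd163 and Mrc1. Of 10, 8 rose in isotype against PBS and 6 fell in anti-IL-4Ra against isotype, with 3 higher in anti-IL-4Ra against PBS. The shares over all genes tested were 9.53%, 8.13% and 2.28%, and the 8 and the 6 include Chil3. Ly6c2 (0.04, edgeR adjusted p = 0.926), Plac8 (-0.04, adjusted p = 0.896), Ccr2 (-0.31, adjusted p = 0.388) and Ms4a4c (-0.77, adjusted p = 0.114) were not called in anti-IL-4Ra against isotype. The fibronectin gene Fn1 rose by 0.95 (SE 0.16, edgeR adjusted p = 0.00238) and fell by 1.09 (SE 0.16, adjusted p = 0.00184), and F10 rose by 1.53 (SE 0.33, adjusted p = 0.00948) and fell by 1.47 (SE 0.33, adjusted p = 0.0164). In anti-IL-4Ra against PBS Ms4a4c (1.54, SE 0.34, adjusted p = 0.0309) and the chemokine receptor gene Ccr2 (1.08, SE 0.24, adjusted p = 0.0348) were higher. Chil3 was also called in both of the first comparisons, but its near-identical paralog Chil4 may share its reads, so only its levels are given, at 0.0208 CPM in PBS, 1.41 in isotype and 0.0508 in anti-IL-4Ra libraries. The 6 that fell became 3 without any 1 of isotype replicates 2, 3 and 5, and the 3 higher against PBS became 0 without any 1 of PBS replicates 1, 2 and 4 or anti-IL-4Ra replicates 1 and 2.

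Among 17 growth factors, cytokine receptors and regulators of macrophages, 5 rose in isotype against PBS and 4 fell in anti-IL-4Ra against isotype. The shares over all genes tested were 9.53% and 8.13%. Tfec, a transcription factor gene of macrophages, rose by 2.67 (SE 0.34, edgeR adjusted p = 0.000641) and fell by 1.61 (SE 0.32, adjusted p = 0.00993). Csf2rb, the shared receptor chain for GM-CSF, IL-3 and IL-5, rose by 1.41 (SE 0.21, adjusted p = 0.00154) and fell by 0.85 (SE 0.21, adjusted p = 0.021). Il4ra, which encodes the chain the antibody binds, rose by 0.74 (SE 0.22, adjusted p = 0.0342) and fell by 1.06 (SE 0.22, adjusted p = 0.0119), from 107 CPM in isotype to 51.4 CPM in anti-IL-4Ra libraries. Its partner chain gene Il13ra1 fell by 0.37 (SE 0.10, adjusted p = 0.0305). Spic, the regulator of red pulp macrophages that recycle iron, rose by 1.59 (SE 0.29, adjusted p = 0.00438) and stayed higher in anti-IL-4Ra against PBS (1.28, SE 0.30, adjusted p = 0.036). The call of Spic against PBS was lost without any 1 of PBS replicates 1 to 4 or anti-IL-4Ra replicates 1, 2 and 5. The 5 that rose became 3 without any 1 of PBS replicates 4 and 5 or isotype replicates 2, 3 and 5, and the 4 that fell became 2 without isotype replicate 3 or anti-IL-4Ra replicate 1 or 4 and 6 without isotype replicate 1.

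**Figure D4:**
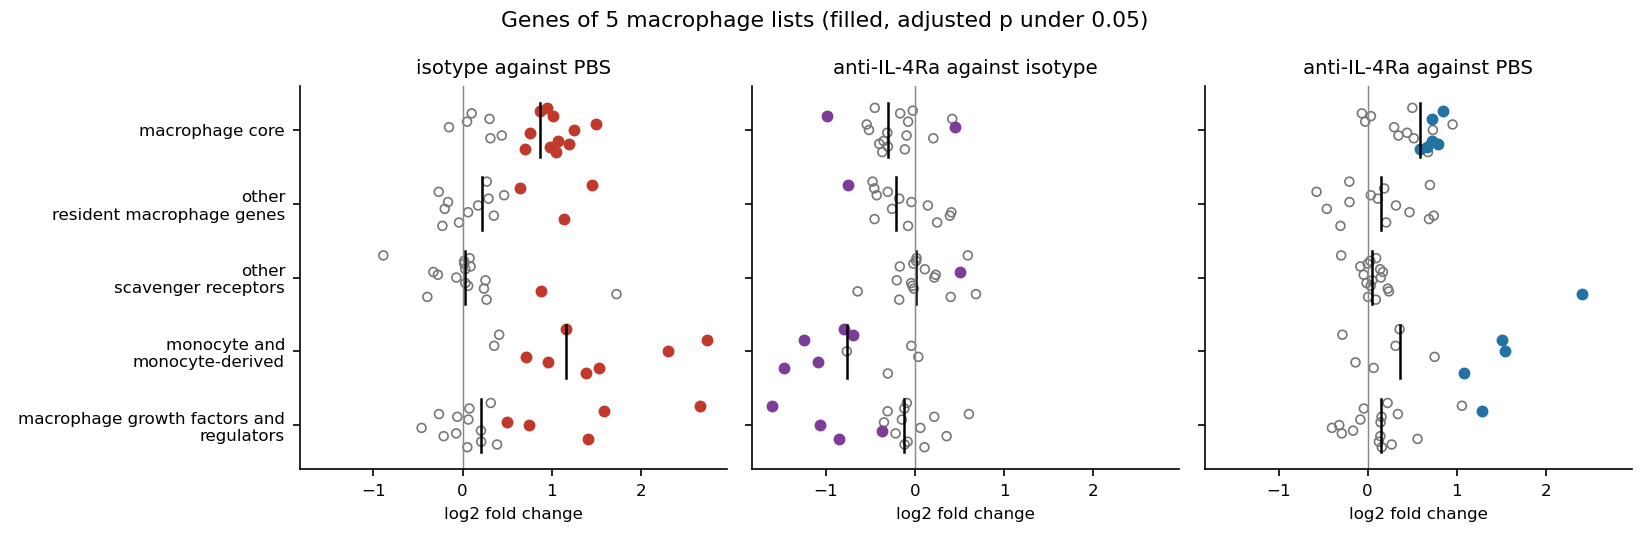
Log2 fold changes (horizontal axes) of the genes of 5 lists in the 3 comparisons, filled where the edgeR adjusted p was under 0.05, with the median of each list as a black line. Core and monocyte genes lie mostly right of 0 in isotype against PBS (11 of 17 core genes called higher), and other scavenger receptors cluster at 0; Chil3 was left out of the drawing.

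Genes of other tissues that could carry Marco were set beside it. Of 10 genes of lymphoid follicles and lymph nodes, 8 were tested, and only the B cell chemokine gene Cxcl13 was called, lower in isotype against PBS (-0.81, SE 0.21, edgeR adjusted p = 0.0198) and higher in anti-IL-4Ra against isotype (1.2, SE 0.21, adjusted p = 0.00537). The first of these calls was lost without PBS replicate 2 or isotype replicate 3. The list summed to 84.3 to 105.8 CPM in PBS, 65.5 to 101 CPM in isotype and 80.8 to 142 CPM in anti-IL-4Ra libraries. Of 8 skeletal muscle genes, 6 fell in isotype against PBS, where the sum went from 9938 ± 2410 CPM to 6031 ± 1025 CPM (SD, n = 5), and 0 were called in the other comparisons. The share of all genes tested that fell in isotype against PBS was 7.49%, and 6.73% rose in anti-IL-4Ra against isotype. Cxcl13 stood at 4.85 CPM in PBS, 2.75 in isotype and 6.34 in anti-IL-4Ra libraries, an order that differs from that of Marco. The part of these tissues in the Marco values was not tested.

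None of the 8 other genes tested resembled Marco across libraries. Their Pearson correlations with Marco in log2 CPM over 15 libraries ran from -0.625 (F13a1) to 0.126 (Timd4), without Vsig4, which was not tested. By the rule of the highest correlation, the 10 genes most like Marco of those tested were 4930430F08Rik (r = 0.915), Pak3 (0.881), Napepld (0.851), Gm31641 (0.848), Top3b (0.848), Nyap1 (0.84), Armcx1 (0.84), Dzip1 (0.829), Gng12 (0.827) and Mepce (0.826). Their own levels differed far less than that of Marco, for example 18.4 ± 1.25 CPM in PBS, 15.4 ± 0.932 in isotype and 14.5 ± 1.17 in anti-IL-4Ra libraries for Pak3, and 0.279 ± 0.0566, 0.127 ± 0.0485 and 0.144 ± 0.0206 CPM for Gm31641, in that order of groups. After centring on group means the most alike were Ankrd28 (0.923), Dgkk (0.843), Gm8738 (0.84), Stac (0.809) and Zmym4 (0.767), a wholly different set. None of these 15 is in the macrophage lists. The points share library, depth and group, and the correlations are given as a description.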

How the data were processed

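Poly(A) RNA of conjunctiva from 15 libraries, 5 per group, was prepared with a stranded kit and sequenced as paired ends. The authors aligned the reads in Array Studio to mouse B38 with Ensembl R100 and deposited estimated counts per gene, without normalization. The way reads were assigned to genes and the use of strand are not given in the sources used here. The study itself used a linear model on log2-transformed FPKM, which was computed here from the counts as an alternative.

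The deposited expected counts were rounded to whole numbers. Names and positions came from GENCODE M21 (GRCm38), which named 55227 of 55487 genes. After genes below 10 counts in more than 10 of the 15 libraries had been dropped, 19006 were fitted in 1 model of 3 groups with edgeR 4.0.16 (R 4.3.3), using TMM factors (0.803 to 1.11) and the two-sided quasi-likelihood test with Benjamini-Hochberg adjustment over all genes, and called at an adjusted p under 0.05. Log2 CPM used a prior count of 2. Single values were compared by exact permutation tests over libraries (scipy 1.17.1). DESeq2 1.42.0, limma 3.58.1, other filters and factors, covariates, a replicate block and left-out libraries were alternatives, and the code was tested on simulated data. No 2 libraries of a group agreed within sampling noise, with chi-square per degree of freedom of 19.5 to 1073 over 30 pairs.

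The 10 genes and all gene lists were chosen with earlier results of these data known. Named genes are the members and, in each list, those called with the largest changes. Counting intervals and floors cover counting error only. Values of some listed genes are not reported here.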

Additional observations from a re-analysis of the deposited data

Results flagged for a closer look

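Of 30 groups of 5 libraries examined for the 10 genes, 1 had a library far from the other 4. Lyve1 stood at 13.32 CPM in anti-IL-4Ra replicate 5, while the other 4 libraries of that group had 15.4 to 16.1 CPM, and the gap to the nearest of them was 0.737 of the group's range, above the critical value of 0.71. Chance alone flags about 1 in 20 groups. The same library was lowest of its group for 4 of the 10 genes.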

How the results depend on the processing

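The macrophage core score ran from 4.535 to 4.691 in PBS, 4.918 to 5.719 in isotype and 4.93 to 5.412 in anti-IL-4Ra libraries. Its PBS range overlapped neither other group, so differences from PBS adjusted for the score are extrapolated. With the macrophage core score as a covariate, Marco was lower by -1.28 in isotype and -2.63 in anti-IL-4Ra than in PBS, and several log2 differences changed sign. In isotype against PBS these were -0.084 for Msr1, -0.33 for Timd4, -0.48 for Folr2, -0.20 for Stab1 and -0.092 for F13a1. In anti-IL-4Ra against isotype they were 0.033 for Msr1, 0.016 for Lyve1 and 0.038 for F13a1. In anti-IL-4Ra against PBS they were -0.0501 for Msr1, -0.40 for Cd163, -0.40 for Mrc1, -0.52 for Folr2, -0.23 for Stab1 and -0.054 for F13a1, and 1 of the 8 genes was called. List genes called were then 1 in isotype against PBS (63 without the covariate) and 24 in anti-IL-4Ra against isotype (38 without it). On log2(FPKM + 1), which compresses low values, Marco differed by -0.53 and -0.56 from PBS, and 1 list gene was called in anti-IL-4Ra against PBS, where 17 were called by edgeR. That last count was 37 with DESeq2, 11 without a count filter and 8 with the lacrimal acinar covariate. The lacrimal covariate left 0 of the 8 tested members and 10 list genes called in anti-IL-4Ra against isotype, and voom gave 58 list genes there and a Lyve1 difference of 0.011 in isotype against PBS. Of the 10 genes most like Marco, 3 were shared with Spearman correlations and 6 with a prior count of 0.5. The cause of these changes was not tested.

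Whether replicate numbers pair the samples is not settled here, since libraries with different numbers were not compared. Deviations of the 15 same-numbered pairs correlated at -0.385 to 0.454, with 4 over 0.1. A replicate block left 7 list genes called in anti-IL-4Ra against PBS and 2 of the 8 members in anti-IL-4Ra against isotype.

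Leaving out 1 library, or 1 isotype and 1 anti-IL-4Ra library, gave 0 to 5 of the 8 members and 8 to 64 list genes called in anti-IL-4Ra against isotype, and 0 to 28 list genes in anti-IL-4Ra against PBS. Without 1 library, 3 to 9 of the 10 genes most like Marco were shared. Lyve1 ran from -0.18 to 0.047 in isotype against PBS and from -0.16 to 0.12 in anti-IL-4Ra against isotype, and F13a1 from -0.29 to 0.0235 in the latter. Cd163 and Mrc1 were called in all 15 fits without 1 library, and in 17 and 15 of the 25 without a pair. Depth limited Marco in the antibody groups and Vsig4 in all groups.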

Other observations

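Genes that IL-4 induces in macrophages differed widely between the groups. Of 11, 6 rose in isotype against PBS and 7 fell in anti-IL-4Ra against isotype by the edgeR test. Over all genes tested, 9.53% rose in the first and 8.13% fell in the second, and these shares apply to the lists below as well. In anti-IL-4Ra against PBS 2.28% of all genes were higher and 1.44% lower. Both the 6 and the 7 include Chil3 and Chil4, and Chil3 is also in the monocyte list. Chil4 stood at 0.0282 CPM in PBS, 116 CPM in isotype and 0.00774 CPM in anti-IL-4Ra libraries, with its paralog Chil3 as a possible sharer of reads. The lipoxygenase gene Alox15 rose by 2.42 (SE 0.39, adjusted p = 0.00208) and fell by 2.29 (SE 0.38, adjusted p = 0.00446), and Pdcd1lg2, which encodes PD-L2, rose by 2.27 (SE 0.38, adjusted p = 0.00255) and fell by 2.92 (SE 0.40, adjusted p = 0.00121). In anti-IL-4Ra against PBS, Ccl17 (-2.10, SE 0.43, adjusted p = 0.0255) and Egr2 (-0.41, SE 0.10, adjusted p = 0.0458) were lower and Clec10a (0.69, SE 0.18, adjusted p = 0.0473) was higher. These counts of 2 lower and 1 higher against PBS were 0 lower without any 1 of PBS replicates 1, 2 and 4 or anti-IL-4Ra replicates 1, 2 and 5, and 0 higher in 10 of the 15 fits without 1 library. The 6 became 4 without any 1 isotype library, and the 7 became 3 without isotype replicate 3.

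Of 13 genes induced by Toll-like receptors or interferon-gamma, 8 rose in isotype against PBS, led by Il6 (4.04, SE 0.57, adjusted p = 0.00108) and Saa3 (2.79, SE 0.46, adjusted p = 0.00242), and 4 fell in anti-IL-4Ra against isotype. The 8 became 5 without isotype replicate 2. Nos2, the inducible nitric oxide synthase, was higher in anti-IL-4Ra than in PBS libraries (1.92, SE 0.45, adjusted p = 0.036), a call lost without any 1 of PBS replicates 1 to 4 or anti-IL-4Ra replicates 1, 2, 4 and 5.

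Dendritic cell genes had 4 of 8 higher in isotype against PBS and 3 lower in anti-IL-4Ra against isotype, a count that was 0 without isotype replicate 2 or anti-IL-4Ra replicate 4. The 4 became 2 without PBS replicate 2 or 3 or isotype replicate 3. Of 6 neutrophil genes tested, 4 rose and 3 fell in the same comparisons, among them Csf3r, the G-CSF receptor (2.11, SE 0.26, adjusted p = 0.000596, and -1.52, SE 0.26, adjusted p = 0.00479). The 4 became 2 without PBS replicate 2 or isotype replicate 3, 4 or 5, and the 3 became 1 without isotype replicate 2, 3 or 5. Of 6 mast cell genes, 3 rose in isotype against PBS, where 1 was called without isotype replicate 3, and Hdc, the histamine-forming enzyme, fell in anti-IL-4Ra against isotype (-1.58, SE 0.33, adjusted p = 0.0118).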
